A study of Homo sapiens with 29 samples.

Results

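EphB receptors and their ephrin-B ligands were followed in xenograft tumors of COLO320DM, a human colorectal carcinoma line grown in mice. The set named 6 genes, the receptors EPHB2, EPHB3, EPHB4 and EPHB6 and the ligands EFNB1 and EFNB2, and the deposited table of 13492 genes held 5 of them. EPHB6 is not analysed here. The set was chosen by its measured levels in these libraries, with EPHB3 higher and EPHB2 lower in tumors given Helicon4 than in tumors given vehicle. Differences of these genes between Helicon4 and vehicle are therefore given below as descriptions, without p-values. Where such a difference is said to pass the threshold or not, this describes the same libraries that chose the set and supports nothing.

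Tumors labelled 48 h came from mice given Helicon4 at 100 mpk (n = 5 libraries), Helicon4 at 30 mpk (n = 6), Helicon4neg at 30 mpk (n = 8) or vehicle (n = 10), where mpk is the dose unit of the labels. The series presents Helicon4 as a helicon peptide directed at β-catenin and TCF transcription factors, and Helicon4neg is identified only by its name. Every group shares the COLO320DM tumor, the mouse host and the 48 h time, so all comparisons are within 1 cell line. Beyond replicate numbers, the labels do not say that libraries of a group came from separate animals, and p-values measure the spread between these libraries. Reads recovered from the values numbered 34.3 to 61.6 M (mega) per library at 100 mpk, 40.8 to 48.6 M at 30 mpk, 27 to 59.4 M for Helicon4neg and 26.8 to 60.9 M for vehicle.

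Eph receptors are receptor tyrosine kinases, and ephrins are ligands held on the surface of the neighbouring cell, so the pair signals only where cells touch. B-class ephrins span the membrane and signal backwards into the cell that carries them. In the intestinal crypt, as worked out in mice, Wnt signalling through β-catenin and TCF4 is known to favour EPHB2 and EPHB3 at the crypt base, while ephrin-B1 and ephrin-B2 are higher towards the crypt mouth. This opposition holds the crypt compartments apart. EPHB4 and EFNB2 are also the receptor and ligand that mark veins and arteries in blood vessels.

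The promoters of EPHB3 and EPHB2 are shown because these receptors differed in direction against vehicle with Helicon4 at 100 mpk. Each line gives the 250 bases before a RefSeq transcription start on GRCh38.p14, 5′ to 3′ on the plus strand, with EPHB3 at chr3:184561535-184561784 and EPHB2 at chr1:22710588-22710837. EPHB2 has 2 promoters listed, and the other is neither shown nor counted among the members' windows. Capitals mark each CAGCTG E-box and each GGGCGG box or its reverse complement.
EPHB3: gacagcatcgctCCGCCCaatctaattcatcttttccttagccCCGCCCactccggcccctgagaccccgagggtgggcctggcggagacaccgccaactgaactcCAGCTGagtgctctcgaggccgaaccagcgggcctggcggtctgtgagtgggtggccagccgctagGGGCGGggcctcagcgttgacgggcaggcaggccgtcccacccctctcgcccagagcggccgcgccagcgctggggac
EPHB2: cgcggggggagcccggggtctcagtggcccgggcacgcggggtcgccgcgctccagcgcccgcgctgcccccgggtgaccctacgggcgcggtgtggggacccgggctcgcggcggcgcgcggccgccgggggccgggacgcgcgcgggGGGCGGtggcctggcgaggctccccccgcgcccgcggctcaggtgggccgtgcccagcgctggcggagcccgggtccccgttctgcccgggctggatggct
The EPHB3 window was 70% G or C and the EPHB2 window 84.8%, against a median of 58% over 35116 RefSeq promoters. The letters ATCAAAG, a core of TCF and LEF binding sites, were searched on both strands and occurred in 0 of the 5 members' windows and in 2.26% of all promoters. Among the members, EPHB3 alone held CAGCTG, which 14% of all promoters hold. GGGCGG occurred once in EPHB2 and EFNB1, 3 times in EPHB3 and EFNB2 and 4 times in EPHB4, and 42.6% of all promoters hold it. The motifs searched do not overlap one another, and a match is a description of letters only.

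EPHB3, a receptor on chromosome 3 (184561784 to 184582409, plus strand, GENCODE 29 on GRCh38), was about 3-fold higher with Helicon4. Values are CPM (reads per M reads of a library) on the authors' scaling between libraries. EPHB3 stood at 44.7, 42.7, 35.3, 34.1 and 45.4 CPM in the 5 tumors at 100 mpk. At 30 mpk the 6 tumors had 49.7, 34, 44.9, 37.9, 43.7 and 32 CPM. Helicon4neg libraries ran from 9.11 to 16.2 CPM (median 12.7), and vehicle libraries from 9.10 to 14.7 CPM (median 12.3). Every Helicon4 library thus stood above every library without Helicon4, by a gap wider than the range of the vehicle group. Means were 40.5 ± 5.32 CPM at 100 mpk, 40.3 ± 6.87 CPM at 30 mpk, 12.5 ± 2.75 CPM with Helicon4neg and 12.0 ± 1.99 CPM with vehicle (SD).

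Against vehicle, the log2 fold change of CPM + 1 for EPHB3 was 1.67 ± 0.13 (SE) at 100 mpk and 1.66 ± 0.12 at 30 mpk. Ordered by fold change from the highest, EPHB3 took place 29 of 13373 genes at 100 mpk and place 4 at 30 mpk. Groups lay apart in this direction for 4.67% of all genes at 100 mpk and 1.96% at 30 mpk, which is given as background since these contrasts chose the gene. Helicon4neg did not move EPHB3 past the threshold, an adjusted p under 0.05: the log2 fold change against vehicle was 0.04 ± 0.11, with 95% limits from -0.20 to 0.27 (adjusted p = 0.902, limma over all genes). Helicon4 at 30 mpk lay above Helicon4neg at the same dose by 1.63 ± 0.13 on the log2 scale, with limits from 1.36 to 1.89, in 6 of 6 libraries, and 3.78% of all genes had groups apart in this direction. The Helicon4 libraries in that comparison are among those that chose the gene, so it is given with no p-value. The higher dose gave no further step that could be measured, with a log2 difference of 0.01 between 100 and 30 mpk and limits from -0.29 to 0.31.

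EPHB2, a receptor on chromosome 1 (22710839 to 22921500, plus strand), was lower at 100 mpk and close to vehicle at 30 mpk. EPHB2 had 19.3, 15.5, 17.9, 20.2 and 23.1 CPM in tumors at 100 mpk. At 30 mpk the values were 24.6, 24.8, 21.9, 28.4, 21 and 22.4 CPM. Helicon4neg libraries ran from 19.5 to 25.1 CPM (median 22.8) and vehicle libraries from 20.3 to 27.3 CPM (median 24.5). At 100 mpk 4 of 5 libraries lay below the lowest vehicle library, while the 30 mpk values lay in and above the vehicle range. The means were 19.2 ± 2.80 CPM at 100 mpk, 23.9 ± 2.68 CPM at 30 mpk, 22.8 ± 1.84 CPM with Helicon4neg and 24.4 ± 2.24 CPM with vehicle (SD).

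The log2 fold change of EPHB2 against vehicle was -0.34 ± 0.086 at 100 mpk and -0.03 ± 0.081 at 30 mpk, so the lower EPHB2 that chose the gene is seen in 1 of the 2 dose groups. Between 100 and 30 mpk EPHB2 differed by -0.30 ± 0.095, with limits from -0.50 to -0.11. This difference is a description too, because the low EPHB2 values at 100 mpk are among those that chose the gene. Helicon4neg differed from vehicle by -0.09, with limits from -0.25 to 0.06 (adjusted p = 0.532, limma). Helicon4 at 30 mpk differed from Helicon4neg at 30 mpk by 0.06, with limits from -0.12 to 0.23. That value has no p-value either, because its Helicon4 libraries are among those that chose the gene.

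**Figure D1:**
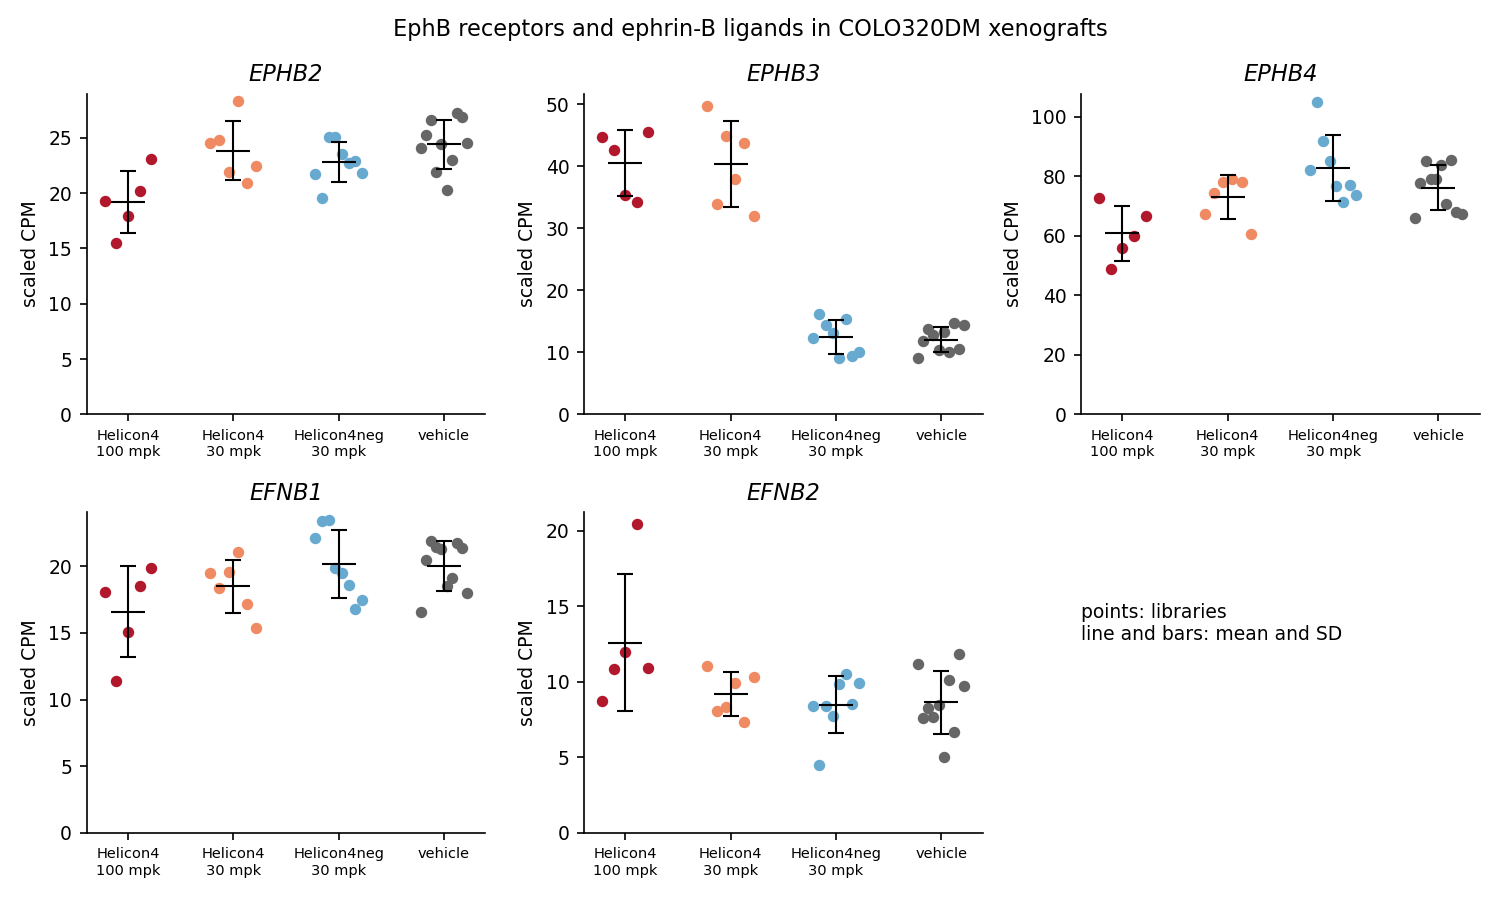
CPM of each of the 5 genes by treatment group. Points are libraries and bars are the mean and SD. EPHB3 is the only panel in which the Helicon4 libraries (32 to 49.7 CPM) stand clear of Helicon4neg and vehicle (9.10 to 16.2 CPM), and in the EFNB2 panel 1 library at 100 mpk stands at 20.4 CPM.

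Within a library, the linear ratio of EPHB3 to EPHB2 does not depend on the scaling between libraries. It is not corrected for gene length, so it serves to compare groups and not the levels of the receptors. The log2 ratio of their CPM + 1 averaged 1.04 ± 0.26 at 100 mpk, 0.72 ± 0.31 at 30 mpk, -0.84 ± 0.34 with Helicon4neg and -0.97 ± 0.25 with vehicle (SD). It was above 0 in every Helicon4 library, the lowest being 0.40, and below 0 in every other library, the highest being -0.26. Helicon4 libraries thus held more reads of EPHB3 than of EPHB2, and the other libraries fewer. In linear terms EPHB3 had 2.14 ± 0.41 times the EPHB2 value at 100 mpk and 1.71 ± 0.37 times at 30 mpk. The same ratio was 0.553 ± 0.15 with Helicon4neg and 0.496 ± 0.092 with vehicle.

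EPHB4, the vein-associated receptor on chromosome 7 (100802565 to 100827521, minus strand), was the most abundant EphB transcript per kilobase in vehicle tumors. It had 72.5, 48.8, 56.0, 59.9 and 66.8 CPM at 100 mpk. The 30 mpk libraries had 67.4, 74.3, 78.1, 79.0, 78.0 and 60.5 CPM. Helicon4neg ran from 71.2 to 105 CPM (median 79.5) and vehicle from 65.8 to 85.4 CPM (median 78.4). At 100 mpk 3 of 5 libraries were below every vehicle library. Mean EPHB4 was 60.8 ± 9.22 CPM at 100 mpk, 72.9 ± 7.43 CPM at 30 mpk, 82.8 ± 11.1 CPM with Helicon4neg and 76.2 ± 7.57 CPM with vehicle.

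The log2 fold change of EPHB4 against vehicle was -0.33 ± 0.096 at 100 mpk and -0.06 ± 0.090 at 30 mpk. EPHB4 did not pass the test for Helicon4neg against vehicle (0.11, adjusted p = 0.479, limma), for Helicon4 against Helicon4neg at 30 mpk (-0.18, adjusted p = 0.228, limma) or for 100 against 30 mpk (-0.26, adjusted p = 0.177, limma). Without library 2 at 100 mpk, the fall of EPHB4 against vehicle was -0.25 and no longer passed. EPHB4 overlaps SLC12A9 on the opposite strand. Whether counting used strand is not given in the sources used here, so reads of the overlap may belong to either gene.

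The ligand EFNB1, on the X chromosome (68828997 to 68842147, plus strand), had overlapping values in all 4 groups. It had 18.1, 11.4, 15.1, 18.6 and 19.9 CPM at 100 mpk. Values were 19.5, 18.4, 19.5, 21.1, 17.2 and 15.4 CPM at 30 mpk. Helicon4neg ran from 16.8 to 23.5 CPM (median 19.7) and vehicle from 16.6 to 21.9 CPM (median 20.9). At 100 mpk 2 of 5 libraries lay below the vehicle range, and the groups otherwise overlapped. Means were 16.6 ± 3.41 CPM at 100 mpk, 18.5 ± 2.00 CPM at 30 mpk, 20.2 ± 2.57 CPM with Helicon4neg and 20.04 ± 1.87 CPM with vehicle.

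EFNB1 differed from vehicle by -0.28 ± 0.10 on the log2 scale at 100 mpk and by -0.11 ± 0.099 at 30 mpk. The 100 mpk value passed the threshold in limma (-0.28) but not in edgeR (-0.27) or DESeq2 (-0.26) on recovered reads. EFNB1 differed by 0.00 between Helicon4neg and vehicle (adjusted p = 0.987, limma), by -0.11 between Helicon4 and Helicon4neg at 30 mpk (adjusted p = 0.505, limma) and by -0.17 between 100 and 30 mpk (adjusted p = 0.493, limma).

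EFNB2, the artery-associated ligand on chromosome 13 (106489731 to 106535662, minus strand), had the lowest mean CPM of the 5 genes in every group. It had 8.75, 10.8, 11.9, 20.4 and 10.9 CPM at 100 mpk. The 30 mpk libraries had 11, 8.07, 8.35, 9.94, 7.33 and 10.3 CPM. Helicon4neg ran from 4.49 to 10.5 CPM (median 8.45) and vehicle from 5.03 to 11.8 CPM (median 8.37). At 100 mpk 2 of 5 libraries exceeded the vehicle range, 1 of them by a wide margin. Mean EFNB2 was 12.6 ± 4.54 CPM at 100 mpk, 9.17 ± 1.46 CPM at 30 mpk, 8.47 ± 1.87 CPM with Helicon4neg and 8.65 ± 2.08 CPM with vehicle.

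EFNB2 differed from vehicle by 0.47 ± 0.17 at 100 mpk and by 0.10 ± 0.16 at 30 mpk. Without the library at 20.4 CPM the 100 mpk value was 0.29 and did not pass. EFNB2 differed by -0.03 between Helicon4neg and vehicle (adjusted p = 0.953, limma), by 0.12 between Helicon4 and Helicon4neg at 30 mpk (adjusted p = 0.693, limma) and by 0.37 between 100 and 30 mpk (adjusted p = 0.314, limma).

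By count, 5 of the 5 genes passed the threshold at 100 mpk against vehicle, with EPHB3 and EFNB2 higher and EPHB2, EPHB4 and EFNB1 lower, where 30.2% of all genes passed (14.3% higher, 15.9% lower). At 30 mpk against vehicle EPHB3 alone passed, where 11.1% of all genes did. Nothing is read from these counts, because the same contrasts chose the set. Between Helicon4neg and vehicle 0 of 5 passed in limma, where 4.84% of all genes did, and 0 of 5 in edgeR and DESeq2 on recovered reads. In each of these tools 0 of 5 had an unadjusted p under 0.05. EPHB3 was the only 1 of 5 to pass between Helicon4 and Helicon4neg at 30 mpk, where 15.1% of all genes did. Between 100 and 30 mpk 0 of 5 passed in limma, where 3.6% of all genes did. There, 2 of 5, EPHB2 and EPHB4, had an unadjusted p under 0.05 in limma, while edgeR called 0 of 5 and DESeq2 1 of 5, EPHB2. Nothing is read from the EPHB2 and EPHB3 parts of the comparisons that hold Helicon4 libraries, since those libraries chose both genes.

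**Figure D2:**
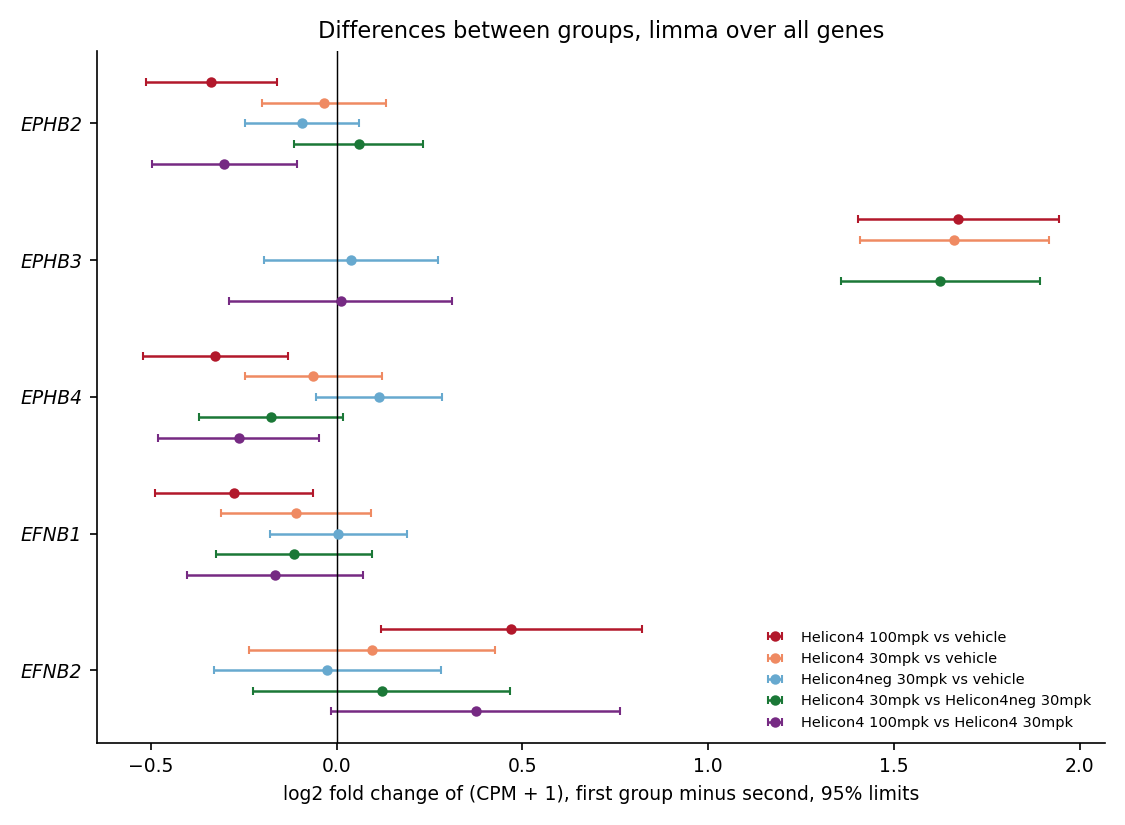
Log2 fold change of CPM + 1 for the 5 genes in each comparison, first group minus second, with 95% limits from limma fitted over all genes. The 3 EPHB3 intervals that set Helicon4 against a group without it lie between 1.36 and 1.94, and the other EPHB3 intervals span 0.

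Library titles carry codes (SH followed by 4 digits), whose meaning the labels do not give, and no code held both vehicle and Helicon4 libraries. The SH7081 code held 3 Helicon4neg libraries and 1 Helicon4 library at 30 mpk, with EPHB3 at 49.7 CPM in the Helicon4 library and at 15.4, 9.40 and 10.1 CPM in the Helicon4neg libraries. The SH7083 code held 4 libraries at 100 mpk and 1 at 30 mpk, with EPHB2 at 19.3, 15.5, 17.9 and 20.2 CPM in the 100 mpk libraries and 22.4 CPM in the 30 mpk library. With the title code as a block, EPHB3 differed from vehicle by 2.37 ± 0.43 at 100 mpk and 2.09 ± 0.33 at 30 mpk, and from Helicon4neg at 30 mpk by 2.04 ± 0.27. These EPHB3 values use the Helicon4 libraries that chose the gene and are given as a description. EPHB2 at 100 mpk kept its size with a wider error (-0.33 ± 0.29) and no longer passed. At 100 mpk EPHB4 (0.19), EFNB1 (0.28) and EFNB2 (-0.02) changed sign and did not pass. In this fit Helicon4 was linked to vehicle only through the Helicon4neg libraries of the SH7080 and SH7081 codes and the 1 library at 30 mpk in SH7081, and 100 mpk to 30 mpk through the 1 library at 30 mpk in SH7083. The blocked values of all 5 genes against vehicle, EPHB3 included, rest on those single libraries. Blocked values of Helicon4 against Helicon4neg at 30 mpk likewise rest on the 1 library at 30 mpk in SH7081. That library had the highest EPHB3 value of all libraries (49.7 CPM). Outside those links, treatment against vehicle and title code cannot be told apart.

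Levels of different genes were set side by side per kilobase, using the gene lengths in the authors' table. At 100 mpk the order was EPHB4 at 9.45, EPHB3 at 8.93, EFNB1 at 5.01, EFNB2 at 2.82 and EPHB2 at 1.53 CPM per kb. It was the same at 30 mpk, with EPHB3 at 8.90 and EPHB4 at 11.3 CPM per kb. In vehicle tumors the order was EPHB4 at 11.8, EFNB1 at 6.05, EPHB3 at 2.66, EPHB2 at 1.95 and EFNB2 at 1.94 CPM per kb. EPHB3 was thus the third of the 5 in vehicle tumors and the second with Helicon4, within the SD of EPHB4 at 100 mpk (1.43 for EPHB4 and 1.17 for EPHB3). EPHB2 and EFNB2 did not differ beyond their spread in vehicle tumors (SD 0.18 and 0.47). The place of EPHB2 rests on its length, which is 12516 bases in the table and 3677 bases for the longest principal transcript of GENCODE 29. With that shorter length EPHB2 stood at 5.22 CPM per kb at 100 mpk and 6.64 in vehicle tumors. EPHB3 by its own principal transcript stood at 9.55 at 100 mpk and 2.84 in vehicle tumors, so EPHB3 lay above EPHB2 with Helicon4 under both lengths, while their order in vehicle tumors turned round. EPHB4 by its principal transcript stood at 14.0 at 100 mpk and 17.6 in vehicle tumors, so the closeness of EPHB3 to EPHB4 at 100 mpk is seen with the table lengths alone.

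Of the summed EphB receptor transcripts per kilobase in the table, counting EPHB1 as well, EPHB3 made up 44.5 ± 4.2% at 100 mpk, 39.6 ± 4.07% at 30 mpk, 15.6 ± 2.50% with Helicon4neg and 15.9 ± 1.88% with vehicle. EPHB4 made up 46.9 ± 3.35%, 50.6 ± 3.45%, 73.0 ± 2.62% and 71.0 ± 2.15% in the same order of groups. The sum itself was 20.1 ± 2.35 CPM per kb at 100 mpk, 22.4 ± 2.17 at 30 mpk, 17.6 ± 2.13 with Helicon4neg and 16.7 ± 1.49 with vehicle. With principal transcript lengths the EPHB3 share was smaller, at 32.9 ± 3.81% at 100 mpk, 28.6 ± 3.55% at 30 mpk, 10.3 ± 1.77% with Helicon4neg and 10.3 ± 1.32% with vehicle. The lowest share in a Helicon4 library, 24.8%, was still above the highest in any other library, 13.7%. By these lengths EPHB4 made up 48.1 ± 2.76% at 100 mpk and 64.1 ± 2.56% with vehicle. EPHB1, the remaining receptor of the class in the table, stayed near 1% in each group.

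**Figure D3:**
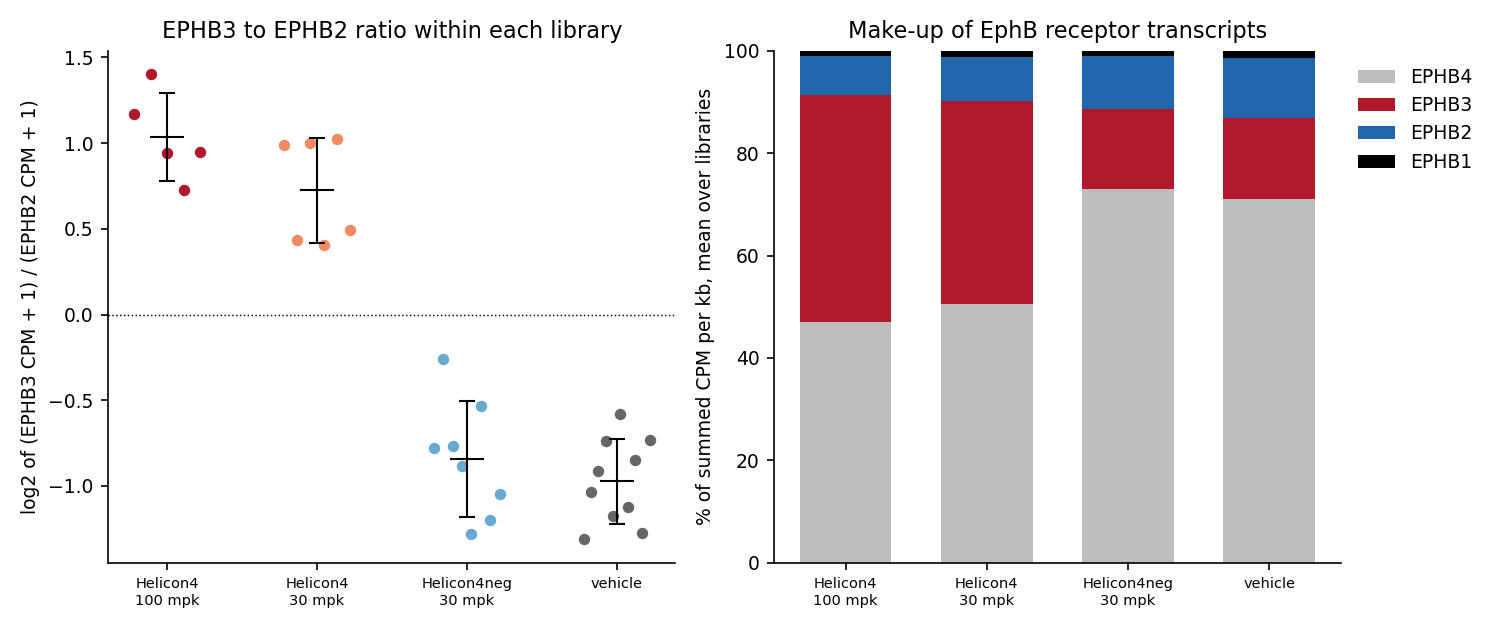
Left, log2 ratio of EPHB3 to EPHB2 in each library with the mean and SD, above 0 in all Helicon4 libraries and below 0 in the others. Right, mean percentage of each EphB receptor in the summed CPM per kb by the table lengths, with EPHB3 at 44.5% and 39.6% with Helicon4 at 100 and 30 mpk, against 15.6% with Helicon4neg and 15.9% with vehicle.

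Across the 29 libraries the members did not move as 1 block. Correlations of log2 values are given as descriptions, since libraries of 1 treatment share it and all share the scaling. EPHB4 and EFNB1 ran together (Pearson r = 0.81), and EPHB2 and EFNB1 did so less (r = 0.64). EPHB4 and EFNB2 ran in opposite directions (r = -0.75). EPHB3 and EPHB2 had r = -0.36.

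A dependence on gene length moved with part of this pattern. In each library, the slope of a gene's deviation on the log of its length shows whether long genes read high or low. The lowest slopes were in Helicon4neg library 2 (-0.32) and vehicle library 6 (-0.19), then in vehicle libraries 4 (-0.14) and 8 (-0.13). Over the 29 libraries the slope had r = 0.78 with EFNB2, r = -0.61 with EPHB4, r = -0.36 with EFNB1, r = 0.23 with EPHB3 and r = 0.18 with EPHB2. The slope averaged -0.040 with vehicle, -0.0072 with Helicon4neg, 0.043 at 30 mpk and 0.039 at 100 mpk. Against vehicle, EFNB2 differed by 0.47 ± 0.17 at 100 mpk and by 0.10 ± 0.16 at 30 mpk. EPHB4 differed by -0.33 ± 0.096 and -0.06 ± 0.090 in the same order. The gene lengths in the authors' table are 4461 bases for EFNB2 and 6435 bases for EPHB4. The part of the slope in the values of EFNB2 and EPHB4 was not tested. Without Helicon4neg library 2 and vehicle library 6, the log2 fold change at 100 mpk against vehicle was 0.40 for EFNB2 and -0.31 for EPHB4. Vehicle libraries 4 and 8 were kept in that fit.

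Among 10884 genes with a mean of at least 5 CPM, those most like EPHB3 over the 29 libraries were GPA33 (r = 0.97), an intestinal surface antigen, PADI2 (r = 0.96), which converts arginine to citrulline in proteins, and BMF (r = 0.96), a BH3-only protein. With group means removed, their r with EPHB3 was 0.63, 0.45 and 0.37, so much of the likeness lay between groups. Genes most like EPHB2 were EMILIN3 (r = 0.93) and ABCA3 (r = 0.85). For EPHB4 they were TELO2 (r = 0.95), B4GALT2 (r = 0.95) and SNX8 (r = 0.95). GNA11 (r = 0.88), BSG (r = 0.87) and SCAP (r = 0.86) were most like EFNB1, and ERRFI1 (r = 0.91), GNG12 (r = 0.90) and ANKIB1 (r = 0.90) most like EFNB2. For these 11 genes, named for the members other than EPHB3, r within groups stayed between 0.83 and 0.93.

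The other Eph receptors in the table numbered 7 of 10 listed. At 100 mpk against vehicle 2 passed as higher and 2 as lower, 4 of 7 where 30.2% of all genes passed, with a median log2 fold change of 0.02 against 0.01 for all genes. EPHA4, a receptor that binds ephrins of both classes, was at 16.2, 19.2, 20.6, 16.7 and 21.9 CPM at 100 mpk, 12.7 to 16.6 CPM at 30 mpk, 4.30 to 11.9 CPM with Helicon4neg and 6.44 to 10.8 CPM with vehicle. Both Helicon4 groups lay above every library of Helicon4neg and vehicle, as did 4.67% of all genes at 100 mpk and 1.96% at 30 mpk against vehicle and 3.78% at 30 mpk against Helicon4neg. The log2 fold change of EPHA4 against vehicle was 1.1 ± 0.15 at 100 mpk and 0.74 ± 0.14 at 30 mpk, and against Helicon4neg at 30 mpk it was 0.61 ± 0.14 (adjusted p = 0.00319, limma). EPHA6 was higher than in vehicle by 0.49 ± 0.13 at 100 mpk and 0.52 ± 0.12 at 30 mpk, and higher than with Helicon4neg by 0.59 ± 0.13 (adjusted p = 0.00122, limma).

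EPHA2, an epithelial receptor, averaged 38.6 ± 7.31 CPM at 100 mpk, 40.1 ± 2.99 CPM at 30 mpk, 58.4 ± 5.17 CPM with Helicon4neg and 50.5 ± 5.25 CPM with vehicle. It was lower than in vehicle by -0.40 ± 0.097 and -0.32 ± 0.091 on the log2 scale at 100 and 30 mpk, and lower than with Helicon4neg at 30 mpk by -0.53 ± 0.095 (adjusted p = 0.000168, limma). EPHA8 was lower at 100 mpk (-0.76 ± 0.13) and did not pass at 30 mpk (-0.27 ± 0.12). EPHB1, at 1.92 ± 0.50 CPM with Helicon4 at 30 mpk, 1.21 ± 0.26 CPM with Helicon4neg and 1.52 ± 0.43 CPM with vehicle, passed against Helicon4neg alone (0.39 ± 0.13, adjusted p = 0.0447, limma), a call lost without any of several single libraries. EPHA1 and EPHA3, both near 1 CPM, passed nowhere. Between Helicon4neg and vehicle 0 of the 7 passed in limma, edgeR or DESeq2, and 1 of 7, EPHA2 (0.21), had an unadjusted p under 0.05 in limma.

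Of the 5 other ephrins in the table, EFNA1 (0.38 ± 0.11) and EFNA5 (0.50 ± 0.16) were higher and EFNA4 (-0.38 ± 0.14) lower at 100 mpk against vehicle, with a median of 0.01 over the 5, where 30.2% of all genes passed. At 30 mpk, where 11.1% of all genes passed, 0 of 5 did so in limma, edgeR or DESeq2, and 3 of 5 had an unadjusted p under 0.05. EFNB3, the third B-class ephrin, passed against Helicon4neg at 30 mpk (0.39 ± 0.10, adjusted p = 0.00702, limma), where it averaged 12.6 ± 1.05 CPM with Helicon4, 9.37 ± 1.22 CPM with Helicon4neg and 10.8 ± 1.75 CPM with vehicle. EFNA3 passed nowhere. With the title code as a block, every one of these calls on other Eph receptors and ephrins was lost, EPHA6 (-0.38) and EFNA4 (0.12) at 100 mpk and EPHA6 (-0.05) at 30 mpk turning sign. EPHA4 kept its direction in that fit, at 0.75 and 0.35 against vehicle and 0.62 against Helicon4neg.

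**Figure D4:**
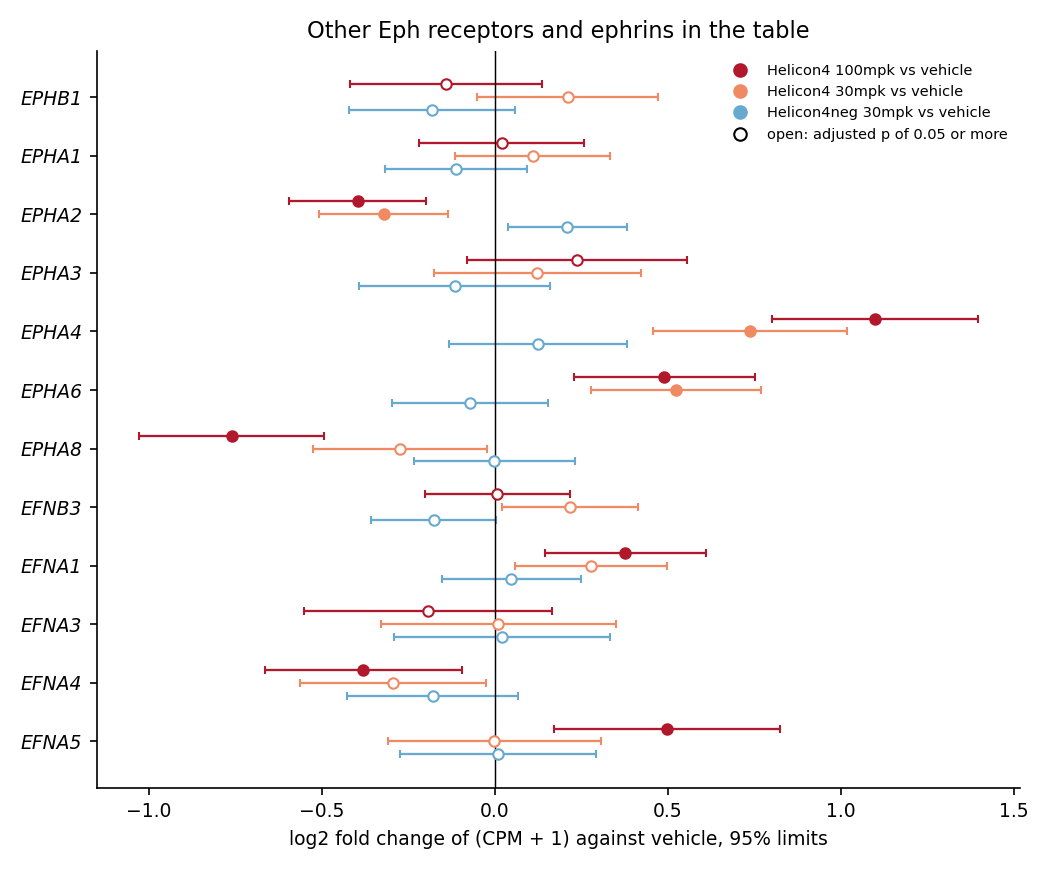
Log2 fold change of CPM + 1 against vehicle with 95% limits for the 12 other Eph receptors and ephrins in the table. Filled points passed adjusted p under 0.05, and EPHA4 has the largest positive values (1.1 and 0.74) and EPHA8 at 100 mpk the largest negative one (-0.76).

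Genes that carry the signal inside the cell were counted from a list drawn up with earlier results of these data known. Of 18 kinases, adaptors and GTPase-activating proteins recruited by EphB receptors, 4 were higher and 1 lower at 100 mpk, and 2 were higher at 30 mpk (median log2 fold changes 0.13 and 0.15, against 0.01 and -0.00198 for all genes). Of all genes 30.2% passed at 100 mpk and 11.1% at 30 mpk, so the counts of 5 and 2 of 18 were near the background, and the counts that follow are given beside the same shares. None of the 3 most abundant genes of the list (CRKL, GRB2 and YES1) passed in any comparison.

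Of 12 measured partners of the ephrin-B tail, 2 were higher and 4 lower at 100 mpk (median -0.03), and 2 were higher at 30 mpk. DVL1 (-0.71 ± 0.14) and DVL2 (-0.35 ± 0.088), Dishevelled proteins that also serve Wnt signalling, were among the lower ones, and SDCBP did not pass. Of 11 proteases and phosphatases of the system, 1 was higher and 2 lower at 100 mpk (median 0.02), and 2 were lower at 30 mpk. The 3 most abundant, APH1A, a subunit of γ-secretase, and the phosphatases PTPRF and ACP1, passed in no comparison. Of 13 measured regulators of EPHB genes in the crypt, 3 were higher and 4 lower at 100 mpk (median -0.02), and 2 were higher and 2 lower at 30 mpk. CTNNB1, which encodes β-catenin, was higher by 0.35 ± 0.064 at 100 mpk and 0.24 ± 0.060 at 30 mpk. CDX2, an intestinal homeobox factor, was lower by -0.59 ± 0.13 at 100 mpk and did not pass at 30 mpk, while MYC passed in no comparison. CDX2 was higher in Helicon4neg than in vehicle by 0.40 ± 0.11 (adjusted p = 0.0257, limma). Once title codes entered the fit as a block, DVL1, DVL2, CTNNB1 and CDX2 no longer passed.

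Markers of other cells were checked because EPHB4 and EFNB2 are also endothelial genes, and in bulk tumor RNA fewer cells of a type and less RNA per cell cannot be told apart. Of 13 endothelial markers 5 were in the table, and PECAM1, CDH5, KDR and TEK were not among them. The summed level of these 5 ran from 28.7 to 43.2 CPM at 100 mpk, 36.4 to 59.6 CPM at 30 mpk, 45.8 to 151 CPM with Helicon4neg and 45.8 to 98.7 CPM with vehicle. Most of this sum is EGFL7 and CLDN5, which averaged 40.7 and 11.8 CPM over all libraries. FLT1, ESAM and ENG averaged 0.89, 1.99 and 2.64 CPM, so the sum says little about endothelial genes as a set. At 100 mpk against vehicle, where 30.2% of all genes passed, 2 of 5 did so, CLDN5 (-1.86 ± 0.25) and EGFL7 (-0.61 ± 0.23). Both were lower, in the direction of EPHB4 and opposite to EFNB2. At 30 mpk, where 11.1% of all genes passed, CLDN5 (-1.16 ± 0.23) and FLT1 (-0.27 ± 0.090) passed as lower, FLT1 at a mean of 0.89 CPM. With the title code as a block these calls were lost, EGFL7 turning to 0.72 at 100 mpk. ESAM and ENG passed at neither dose against vehicle. Against Helicon4neg at 30 mpk, CLDN5 (-1.52) and FLT1 (-0.29) were lower, while ENG was higher (0.52 ± 0.12, adjusted p = 0.00288, limma). ENG was also lower with Helicon4neg than with vehicle (-0.42 ± 0.11, adjusted p = 0.0182, limma). The part of the endothelial markers in the EPHB4 and EFNB2 values was not tested. Of 12 fibroblast and pericyte markers 5 were in the table, with sums of 42.0 to 50.9 CPM at 100 mpk, 39.5 to 52.2 CPM at 30 mpk, 23.8 to 45.5 CPM with Helicon4neg and 29.4 to 43.1 CPM with vehicle. COL1A1, a fibrillar collagen chain, was higher by 0.77 ± 0.13 at 100 mpk and 0.74 ± 0.13 at 30 mpk against vehicle, and PDGFRA, a fibroblast receptor near 1 CPM, by 1.13 ± 0.098 and 0.41 ± 0.092, in the direction of EPHB3. COL3A1, of the same list and at a mean of 12.0 CPM, did not pass at 100 mpk (-0.05 ± 0.19). PDGFRB, the pericyte receptor, was lower at 100 mpk (-0.29 ± 0.11). Leukocyte markers, 4 of 8 in the table, summed to 26.5 to 38.7 CPM at 100 mpk, 25.5 to 36.3 CPM at 30 mpk, 16.7 to 41.9 CPM with Helicon4neg and 27.2 to 44.5 CPM with vehicle. CTSS, a lysosomal protease of myeloid cells, was lower by -0.77 ± 0.15 at 100 mpk and -0.77 ± 0.14 at 30 mpk, and ITGAM, a myeloid integrin, was higher by 0.33 ± 0.10 and 0.29 ± 0.094. With title codes as a block, 1 of these fibroblast and leukocyte calls against vehicle still passed, PDGFRA at 100 mpk (1.49 ± 0.32). The part of these markers in the EPHB3 values was not tested. Epithelial carcinoma markers, 8 of 10 in the table, summed to at least 6026 CPM in every library, although CDH1 and VIL1 were not in the table. This sum includes MYC and CDX2, which averaged 5571 and 3123 CPM over all libraries, so it says little about the other markers. No mouse genome is named in the submitters' processing notes, so reads from host cells may be counted under human genes.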

How the data were processed

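The 29 libraries were polyA RNA from tumors, read on a NovaSeq S4. The labels give a NEBNext Ultra II Directional kit under extraction and a TruSeq stranded mRNA kit for the libraries. Per the submitters' processing notes, the tools were featureCounts (Subread 2.4.2), edgeR 4.0.2, Trimmomatic 0.39 and STAR 2.7.7a on GRCh38; the annotation and settings are not given in the sources used here. The authors deposited CPM, a signal in which the count of each gene is divided by an effective library size. The gene length column, in bases, is the authors' own. Columns summed to 0.921 to 1.26 M, and all values (100%) fell within 0.05 reads of a whole number of reads, which gave depths of 26.8 to 61.6 M reads. The members had at least 96 reads in every library. Intervals cover counting and library spread as limma models it.

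The members, lists and tests were chosen with earlier results of these data known. The test was limma 3.58.1 (R 4.3.3) with trend and robust settings on log2(CPM + 1), all 4 groups in 1 fit, for the 13373 genes reaching 1 CPM in 5 or more libraries, two-sided, with Benjamini-Hochberg adjustment over all genes and a threshold of 0.05. This scale understates changes of low genes. Helicon4 at 100 mpk was not set against Helicon4neg at 30 mpk, because the doses differ. Errors of levels are SD and of fold changes SE. Genes named were the members, every other Eph receptor and ephrin, the 3 most abundant of each other list, cell type markers, and the 3 genes most correlated with each member; 1 such gene and 1 list are not reported here. Alternatives were other pseudocounts and filters, only the 2 groups compared, the replicate number or title code as a block, each library left out, and edgeR 4.0.16 and DESeq2 1.42.0 on recovered reads. The principal transcript lengths were added after the data were seen. The fit was tested on simulated data. Replicates differed by more than sampling noise. Promoters came from the RefSeq table of GRCh38.p14, where 5 of 5 members matched.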

Additional observations from a re-analysis of the deposited data

Results flagged for a closer look

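Of 72 combinations of gene and group examined, 8 held a library far from the others of its group; about 1 in 20 is flagged by chance. EFNB2 was at 20.4 CPM in library 4 of Helicon4 at 100 mpk, where the others had 8.75 to 11.9 CPM, and at 4.49 CPM in Helicon4neg library 2, where the others had 7.73 to 10.5 CPM. In library 2 of Helicon4 at 100 mpk, EPHA1 was at 1.36 CPM (others 0.578 to 0.701) and EPHA2 at 25.7 CPM (others 40.4 to 44.1). EFNB3 was at 11.9 CPM in Helicon4neg library 3 (others 8.39 to 9.94). Helicon4neg library 2 also had EFNA3 at 35.8 CPM (others 11.7 to 17.1) and EFNA4 at 38.9 CPM (others 18.5 to 22), and vehicle library 6 had EFNA4 at 38 CPM (others 19.4 to 27.8). The 2 last-named libraries are those whose values depended most on gene length.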

How the results depend on the processing

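EPHB3 differences between Helicon4 and the groups without it, which use the libraries that chose the gene, are no test, and their alternatives are given as a description. The title code block left 141, 74, 2, 184 and 10 genes called. The order is 100 mpk against vehicle, 30 mpk against vehicle, Helicon4neg against vehicle, 30 mpk against Helicon4neg and 100 against 30 mpk. Without the block 4043, 1481, 647, 2018 and 482 were called. Under this block the log2 fold change turned sign at 100 mpk against vehicle for EPHB4 (0.19), EFNB1 (0.28), EFNB2 (-0.0234), EPHA6 (-0.38), EFNA4 (0.12) and EGFL7 (0.72). It did so at 30 mpk against vehicle for EPHB4 (0.23), EFNB1 (0.27), EFNB2 (-0.27) and EPHA6 (-0.0479), and for EFNB1 at 30 mpk against Helicon4neg (0.14) and between doses (0.011); the cause was not tested. Without Helicon4neg library 2 and vehicle library 6, 2025 genes were called between Helicon4neg and vehicle and 1051 between doses, and EPHB3 (-0.000436), EFNB1 (-0.0378) and EFNB2 (0.011) turned sign around 0 between Helicon4neg and vehicle. DESeq2 called 1105 and 750 genes in those comparisons and gave EPHB3 -0.00226 between doses. Fitting only the 2 groups left 366 genes for Helicon4neg against vehicle, and the calls on EFNB1 and EFNB2 at 100 mpk and on CDX2 between Helicon4neg and vehicle (adjusted p = 0.0599, limma) were lost. A pseudocount of 0.1 lost EPHB1 against Helicon4neg (adjusted p = 0.0525, limma).

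With each library left out in turn, called genes ran from 2947 to 4378, 983 to 1621, 381 to 2592, 1500 to 2295 and 203 to 695 in the same order of comparisons. The 2592 came without Helicon4neg library 2, and the 983 without library 1 at 30 mpk. Differences near 0 changed sign: EPHB3 (-0.016 to 0.0932), EFNB1 (-0.0271 to 0.0381) and EFNB2 (-0.097 to 0.0828) between Helicon4neg and vehicle, and EPHB3 between doses (-0.0515 to 0.0726). At 100 mpk against vehicle, EFNB1 (-0.34 to -0.16) lost its call without vehicle 2, 3, 4, 5, 8 or 9 or without 100 mpk library 2 or 3. EFNB2 (0.29 to 0.58) lost it without vehicle 2, 3, 4, 6 or 8 or 100 mpk library 2, 3 or 4, and EFNA4 (-0.43 to -0.32) and EGFL7 (-0.70 to -0.52) without vehicle 2, 3, 4, 6 or 8 or 100 mpk library 2, 3 or 5. EPHB4 and EFNA5 lost it without 100 mpk library 2. EPHA2 at 30 mpk lost it without 30 mpk library 1 or 6. CDX2 between Helicon4neg and vehicle lost it without Helicon4neg 1, 4 or 7. EPHB1 against Helicon4neg lost it in 9 of 14 such fits. FLT1 and ITGAM at 30 mpk and PDGFRB at 100 mpk lost their calls without any of several single libraries. Principal transcript lengths gave EPHB2 5.22, 6.49, 6.21 and 6.64 CPM per kb and EPHB4 14.0, 16.8, 19.1 and 17.6 in Helicon4 at 100 mpk, at 30 mpk, Helicon4neg and vehicle.

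Replicate numbers did not pair libraries: over 35 pairs of the same number the correlation of deviations ran from -0.70 to 0.52, 15 were above 0.1, and 0 of 27 libraries correlated best with their own number. The replicate block called 4431, 1519, 466, 1605 and 366 genes, turned EFNB1 (-0.00185) and EFNB2 (0.0524) between Helicon4neg and vehicle, and lost EFNA1, EFNA5 and PDGFRB at 100 mpk, ITGAM and FLT1 at 30 mpk, CDX2 between Helicon4neg and vehicle, and EPHB1 against Helicon4neg (adjusted p = 0.0708, limma).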
